A study of Homo sapiens with 12 samples.

Results

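The promoters of 6 autosomal germline genes were examined: PIWIL2, MAEL, TDRD1, DDX4, DAZL and SYCP3. A promoter was taken as every CCGG site with a tag within 2000 bp of 1 given start in hg19. All 6 were found, among 279419 regions with a tag when the rest of the genome is taken in tiles of 4 kb. The 6 windows held 25 of the 996035 CCGG sites with a tag on chromosomes 1 to 22 and X. The data are HELP-tagging libraries of 2 cell lines, 769 and 786, from clear cell renal carcinoma, a kidney cancer. HELP-tagging counts short tags beside CCGG sites that a restriction enzyme has cut. MspI cuts CCGG whether or not its inner cytosine is methylated or hydroxymethylated. HpaII is blocked when that cytosine is methylated or hydroxymethylated, so a site with MspI tags and no HpaII tags is read as modified, with no word on which modification. Each line gave 1 untreated control DNA sample and 2 samples treated with AA (ascorbic acid), with 1 HpaII and 1 MspI library from each DNA sample, 12 libraries in all. The labels state no dose, time, passage or clone, nor whether the AA samples 1 and 2 of a line were separate cultures, so the spread between them may be technical.

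Germline genes of this kind are silent in body cells. Many have CpG-rich promoters that are methylated when the embryo forms its body lineages and lose that methylation in primordial germ cells, where the TET enzymes take part. Ascorbic acid is a cofactor of the TET enzymes, which oxidise 5-methylcytosine, and in mouse embryonic stem cells it is known to lower methylation at several germline promoters. PIWIL2 is a PIWI protein that binds piRNAs, the small RNAs that silence transposons in the germ line. TDRD1 is a Tudor-domain scaffold that binds PIWI proteins, MAEL acts in the same pathway, and DDX4 (VASA) is its RNA helicase. DAZL is an RNA-binding protein needed for germ cells to form, and SYCP3 builds the axes of meiotic chromosomes.

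Where MspI read these promoters, HpaII tags were almost absent in untreated 769 and, apart from 1 PIWIL2 site, in AA samples of both lines. The HpaII library of untreated 786 was too shallow to say this of it. In untreated 769 the statement rests on MAEL and PIWIL2, since no other window had more than 6.4 MspI tags there. For AA samples it says nothing of windows that MspI hardly read. In the AA samples of 786, TDRD1 had 0 and 3 MspI tags and DDX4 had 0.125 and 0. DAZL had 0 in 786 AA replicate 1, and DDX4 had 0 in 769 AA replicate 2. The 6 windows held 1206 MspI tags and 25.5 HpaII tags over all libraries. Had HpaII cut there as often relative to MspI as over the whole genome, the same MspI tags would have gone with 808 HpaII tags. Of the 25.5 HpaII tags, 22 lay at 1 PIWIL2 site in 1 library, 786 AA replicate 1. No HpaII tag lay in the DAZL, SYCP3 or TDRD1 window.

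The RefSeq promoter sequences (GRCh38.p14) are shown to let the enzyme sites be seen. Each is the 250 bases before a RefSeq start, 5′ to 3′ on the gene's strand. Capitals mark the enzyme site CCGG, the E-box CACGTG, and TCCCGC or its reverse complement GCGGGA, a core of E2F sites. E-box and E2F sites are known to recruit repressor complexes to germline promoters. No sequence is shown for PIWIL2 or DDX4.
MAEL, chr1:166989030-166989279, + strand: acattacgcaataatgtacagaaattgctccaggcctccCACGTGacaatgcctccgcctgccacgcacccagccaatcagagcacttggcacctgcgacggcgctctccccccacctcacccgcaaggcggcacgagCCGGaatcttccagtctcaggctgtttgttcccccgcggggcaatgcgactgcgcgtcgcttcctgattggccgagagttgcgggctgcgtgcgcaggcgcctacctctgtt
MAEL upstream start, chr1:166975332-166975581, + strand: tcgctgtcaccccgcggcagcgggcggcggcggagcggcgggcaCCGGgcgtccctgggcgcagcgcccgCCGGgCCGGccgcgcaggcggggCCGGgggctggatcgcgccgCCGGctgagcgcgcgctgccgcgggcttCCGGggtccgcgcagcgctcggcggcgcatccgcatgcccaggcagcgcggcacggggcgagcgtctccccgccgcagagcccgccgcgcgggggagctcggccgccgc
TDRD1, chr10:114179037-114179286, + strand: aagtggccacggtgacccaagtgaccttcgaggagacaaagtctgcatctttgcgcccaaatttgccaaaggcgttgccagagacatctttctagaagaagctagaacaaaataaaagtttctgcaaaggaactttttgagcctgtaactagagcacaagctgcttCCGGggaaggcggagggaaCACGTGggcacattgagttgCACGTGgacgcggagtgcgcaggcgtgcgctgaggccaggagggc
DAZL, chr3:16605424-16605673, - strand: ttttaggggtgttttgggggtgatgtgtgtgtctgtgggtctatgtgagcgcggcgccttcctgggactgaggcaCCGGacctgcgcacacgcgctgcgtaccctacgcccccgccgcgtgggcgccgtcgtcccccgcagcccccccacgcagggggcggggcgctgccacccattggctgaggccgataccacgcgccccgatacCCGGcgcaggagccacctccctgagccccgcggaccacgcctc
SYCP3, chr12:101739463-101739712, - strand: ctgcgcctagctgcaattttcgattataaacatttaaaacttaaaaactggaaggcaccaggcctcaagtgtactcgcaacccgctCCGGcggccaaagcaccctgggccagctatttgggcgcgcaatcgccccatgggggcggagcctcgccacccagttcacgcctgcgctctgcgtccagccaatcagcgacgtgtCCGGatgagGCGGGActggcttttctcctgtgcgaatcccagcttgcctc

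Of the stretches shown, MAEL had 1 E-box before its downstream start and TDRD1 had 2. Over all 35116 RefSeq promoters, searched on both strands, 6.34% had CACGTG in these 250 bases. SYCP3 had the E2F core, as did 23.5% of all promoters, and CCGG was in 58.5% of them. The DAZL stretch shown had neither the E-box nor the E2F core. The 250 bases before a second RefSeq start of DAZL, which are not shown, had 1 of each. None of these motifs overlapped another in the stretches shown.

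Because the sequences are of another build than the tag files, they were tied to the tag sites by the spacing of CCGG and the running site numbers, and no coordinate was converted. All 3 CCGG of the MAEL promoter fell on listed sites, the 1 shown above and 2 just after the start, in the stretch agcCCGGcgagggcgCCGGtgc. The given MAEL start lies 79 bp before the RefSeq start. Both CCGG of the SYCP3 promoter fell on listed sites. Of the 6 CCGG before the upstream MAEL start 3 fell on listed sites, and the running numbers between them leave room for the other 3. For DAZL both CCGG of a second RefSeq start, 633 bp inside the gene from the first, fell on listed sites. Carried on to the stretch shown, that spacing puts its CCGG at -43 bases on the listed site at -20 bp from the given start, and its CCGG at -175 bases on no listed site. The CCGG of TDRD1 was tied to no listed site.

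**Figure D1:**
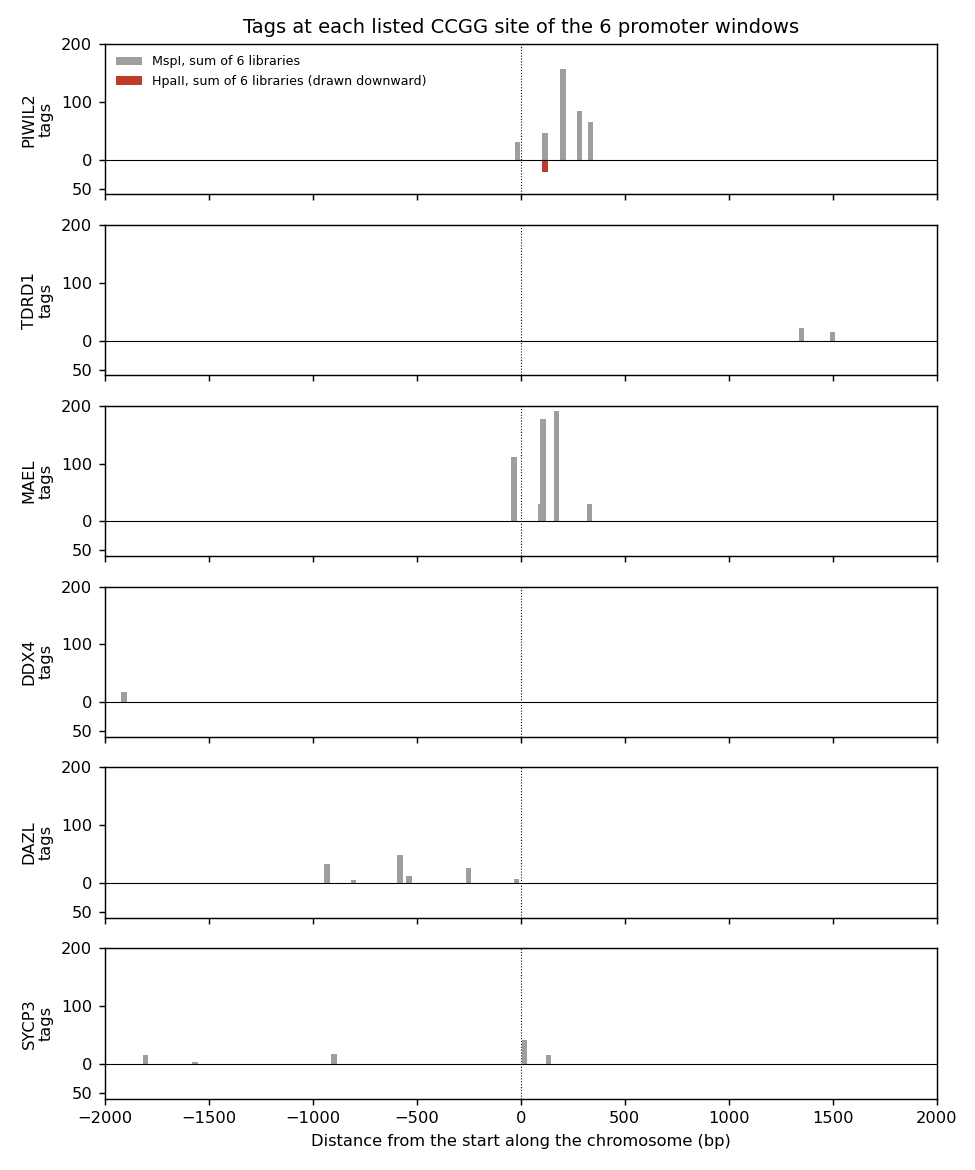
Tags at each listed CCGG site (sum of 6 libraries per enzyme, MspI upward in grey and HpaII downward in red) against the distance from the given start in bp, 1 panel per gene. PIWIL2 at 117 bp is the one site with more than 1 HpaII tag. Counts of 1 or fewer are too small to be seen at this scale.

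PIWIL2 (window chr8:22130810-22134810, hg19) had 5 listed sites, all between -17 and 334 bp of the start. Its MspI tags numbered 52, 125 and 54 in the 769 control, AA replicate 1 and AA replicate 2, and 78, 4 and 71 in the same 3 samples of 786. HpaII tags numbered 0, 2 and 0 in 769 and 0, 22 and 0 in 786. The 2 tags in 769 AA replicate 1 were single tags at 203 and 334 bp. The 22 tags all lay on the right side of the site at 117 bp, where the MspI library of the same DNA had 3 tags and that of 786 AA replicate 2 had 23. Thus 1 of the 4 AA samples stood apart from the other 3, at 1 of 5 sites. The 786 control, with 1.5 HpaII tags at the genome mean, was too shallow to compare it with.

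The level of a window is given as a ratio, the HpaII share of the library over the MspI share of the same DNA, where 1 is the genome mean. Pooled over the 6 DNA samples PIWIL2 stood at 0.0887 (95% exact Poisson interval 0.0568 to 0.132). In 786 AA replicate 1 alone the ratio was 3.25 (2.04 to 4.92), resting on 4 MspI tags. Set against the mean MspI level of the 3 samples of 786, the same 22 tags gave 0.315 (0.197 to 0.477). Without 786 AA replicate 1, PIWIL2 had 2 HpaII tags where 264 would stand at the genome mean, a ratio of 0.00758. Without 769 AA replicate 1 it was 0.19. Tags come from PCR without molecular identifiers, so these intervals cover counting error only, and 22 tags at 1 side of 1 site need not be 22 molecules.

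MAEL (chr1:166956440-166960440, hg19) was the most deeply read of the 6, with 539 MspI tags. It had 5 listed sites between -33 and 331 bp. MspI tags numbered 306, 22 and 40 in the control and AA samples of 769, and 72, 85 and 14 in those of 786. HpaII tags numbered 0, 1 and 0 in 769 and 0 in all 3 samples of 786. The genome mean would have given 135 HpaII tags in the 769 control, and 3 tags, the floor used for a count of 0, bounds its ratio at 0.0222. In 786 AA replicate 1, with 144 tags at the genome mean, the bound was 0.0209. The pooled ratio was 0.00288 (0.000073 to 0.0161), which came from 1 tag at 172 bp in 769 AA replicate 1. Each of the 6 DNA samples thus held at most 1 HpaII tag in this window.

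The sites tied to the downstream RefSeq start of MAEL had MspI tags and no HpaII tag, but each was read in only some of the samples. The CCGG at -112 bases from the RefSeq MAEL start had 111 MspI tags and 0 HpaII tags. The 2 CCGG at 15 and 27 bases had 31 and 177 MspI tags and again 0 HpaII tags. The shallow 786 control gave 41 of the 111 MspI tags and 21 of the 31. The 769 control gave 168 of the 177, and no AA sample had more than 4 there.

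DAZL (chr3:16644992-16648992, hg19) had 6 listed sites between -933 and -20 bp. The gene is read on the minus strand, so they lie from the given start toward the gene body. In 769 it had 6.4 MspI tags in the untreated sample, then 5 and 10 with AA. In 786 the numbers were 52.8, 0 and 61. It had 0 HpaII tags in every library. MspI therefore read the window best in the 786 control and 786 AA replicate 2. In 786 AA replicate 2 the genome mean would have given 36.8 HpaII tags, which bounds the ratio at 0.0815, and over all 6 samples the bound was 0.055. Without that sample the bound was 0.169. The 2 CCGG before the inner RefSeq start held 48 and 13 of the MspI tags. The site nearest the given start, at -20 bp, had 1.4 and 5.8 MspI tags in 2 libraries, fractions that come from tags shared among several places.

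SYCP3 (chr12:102131270-102135270, hg19) had 5 listed sites of the 10 reference CCGG from the first to the last of them, at -1805, -1568, -899, 19 and 133 bp. MspI tags numbered 0, 40 and 6 in 769 and 11, 19 and 18 in 786, in the order control, AA replicate 1 and AA replicate 2. HpaII tags were at 0 in all 6. The 2 CCGG shown above, at -50 and -164 bases from the RefSeq start, had 41 and 16 MspI tags. The ratio was at most 0.0604 for 769 AA replicate 1, at most 0.0933 for 786 AA replicate 1, and at most 0.0308 over all samples. Without 769 AA replicate 1 the last bound was 0.0627. The 769 control had no MspI tag here, so SYCP3 cannot be compared between AA and control in 769.

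TDRD1 and DDX4 were hardly read. TDRD1 (chr10:115937029-115941029, hg19) had 2 listed sites, at 1349 and 1500 bp, and no listed site closer to its start. MspI tags numbered 1, 14 and 8 in 769 and 11, 0 and 3 in 786, with 0 HpaII tags in each. The pooled bound on the ratio was 0.115, and 0.349 without 769 AA replicate 1. DDX4 (chr5:55032570-55036570, hg19) had 2 listed sites, at -1908 and -1444 bp. Its 17.1 MspI tags came from 3 libraries, 10 of them from 769 AA replicate 1, and its HpaII signal was 0.5 of a tag in 786 AA replicate 1. The genome mean would have given 12.8 HpaII tags at DDX4, a pooled ratio of 0.0392. For these genes the counts say nothing of the bases next to the start.

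**Figure D2:**
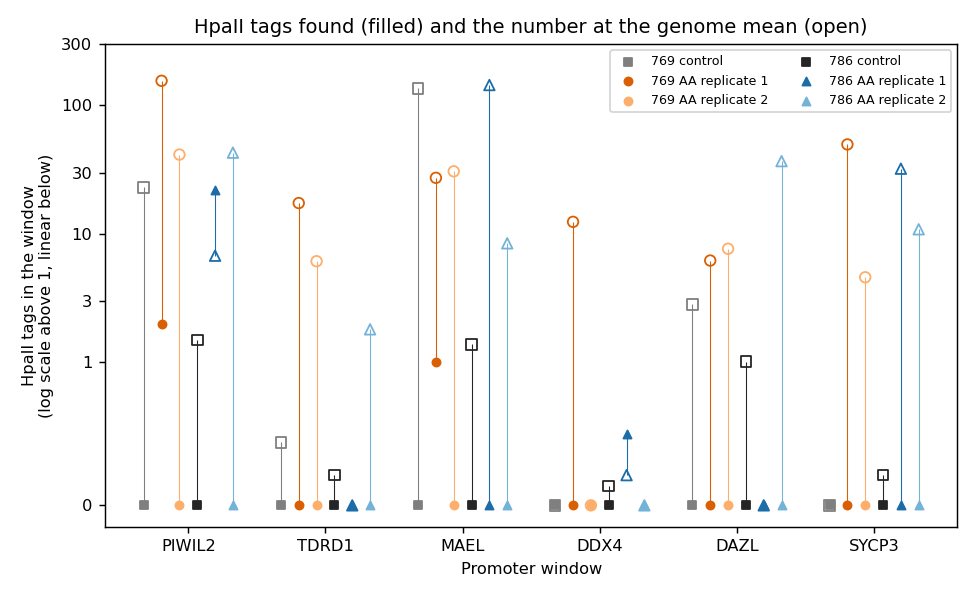
HpaII tags found in each promoter window (filled) and the number that the MspI tags of the same DNA sample would give at the genome mean (open), joined by a line, for the 6 DNA samples. The axis is logarithmic above 1 and linear below. Filled points lie at 0 in 32 of 36 pairs of gene and sample. In 6 pairs there was no MspI tag, and both points lie at 0.

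Summed over the 6 windows, the untreated 769 sample had 0 HpaII tags where 161 would stand at the genome mean. Of these 161, MAEL gave 135 and PIWIL2 23, and SYCP3 and DDX4 had no MspI tag in that sample. The first AA sample of 769 had 3 of 268 and the second 0 of 90.5. For 786 the untreated sample had 0 of 4.46, the first AA sample 22.5 of 183 and the second 0 of 101. The 786 control HpaII library had 189704 tags in all, against 3111094 to 11054037 in the other 5 HpaII libraries. None of its 6 windows reached 3 tags at the genome mean, so no single promoter could be read in it, and the sum over the windows bounds its ratio only at 0.672. A difference between AA and control in 786 was not detectable at this depth for any of the 6 genes.

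The 2 controls together had 0 of 166 tags, a ratio of at most 0.0181 that rests on 769, and there mostly on MAEL. The 4 AA samples had 25.5 of 642, a ratio of 0.0397, and without PIWIL2 1.5 of 396. Of 20 pairs of promoter and DNA sample with at least 3 tags at the genome mean, 17 had no HpaII tag. Outside PIWIL2, 769 had 1 HpaII tag of 300.5 and 786 had 0.5 of 237.

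Across the genome, few HpaII tags was a common state for windows read this thinly. Of 96764 other 4 kb tiles with 2 to 6 listed sites and 17.1 to 539 MspI tags, the span of the 6 promoters, 52.4% had at most 1 HpaII tag, against 5 of the 6 promoters. Of the 18107 such tiles with 5 or 6 listed sites, 32.3% had at most 1, against 3 of the 4 promoters with 5 or 6 sites. The median ratio was 0.171 in these 18107 tiles and 0.0201 (quartiles 0 to 0.527) in the 96764. The 6 promoters summed had a ratio of 0.0315. Of the 96764 tiles, 59.1% had a ratio no higher than the 0.0887 of PIWIL2. Tiles with at least 16 listed sites, the CCGG-dense part of the genome, had a median ratio of 1.7 (quartiles 0.503 to 2.73), and 2.12% of them had at most 1 HpaII tag. No promoter here was of that density. At the level of sites, 20 of the 25 had no HpaII tag in any library. Among sites with 3 to 7 reference CCGG in 1 kb and at least 10 MspI tags, 11 of 15 promoter sites (73.3%) and 51.2% of 246401 other sites had none. With 1 to 2 reference CCGG and the same MspI condition, 6 of 6 promoter sites and 70.2% of 187285 other sites had none. These differences from the rest of the genome were not tested.

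**Figure D3:**
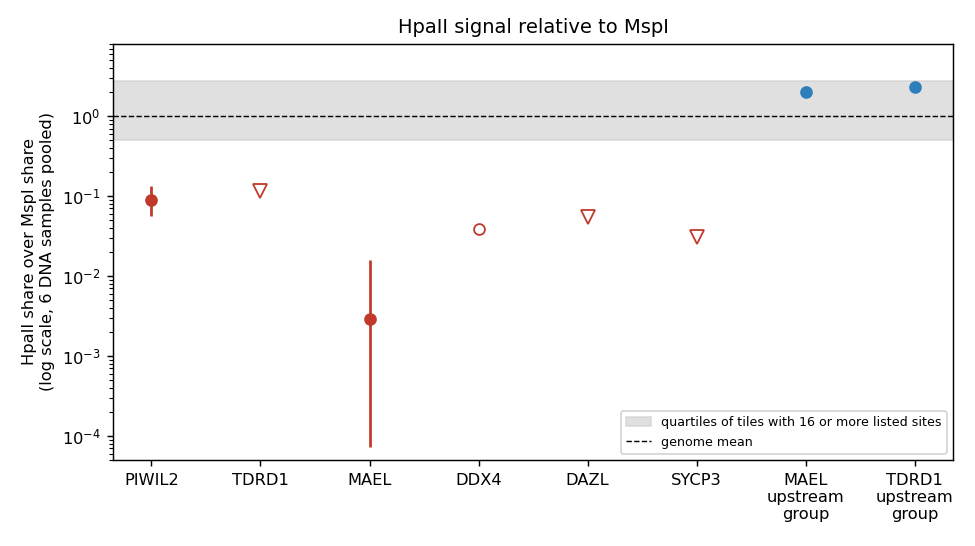
HpaII share over MspI share, pooled over the 6 DNA samples, on a log axis. Points with bars are ratios with 95% exact Poisson intervals, open triangles are upper bounds where no HpaII tag was found, and the open circle (DDX4) rests on 0.5 of a tag. The red promoters lie below the dashed genome mean and below the grey band of CCGG-dense tiles (16 or more listed sites). The blue upstream groups of MAEL (2.0) and TDRD1 (2.29) lie inside the band. No promoter had that density. Tiles with as many listed sites and MspI tags as the promoters are not drawn. Their quartiles were 0 and 0.527, and the promoter ratios lie between these.

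AA was tested against control, and the lines against each other, with edgeR's quasi-likelihood test over all 4 kb tiles and the 6 windows. A feature needed 10 MspI tags in each MspI library and 10 HpaII tags over the 6 HpaII libraries. None of the 6 promoters met both, so none was tested. Of 29930 features tested, 0.200% were called for AA in both lines, 0.889% for AA in 769, 0.0635% for AA in 786, 0.0434% for the difference of the AA effect and 2.49% between the lines (edgeR adjusted p under 0.05). The same test on MspI tags alone, which reads the amount of DNA, called 0.0869% of features between the lines.

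With the MspI condition alone MAEL could be tested. Its edgeR adjusted p was 0.903 for AA in both lines, where 0.699% of 39195 features were called, and 0.81 between the lines, where 2.39% were. A fold is not given, since it would rest on 1 tag. For the same reason these p values could hardly have been low, and they do not show an absence of difference. Its MspI tags had a log2 difference of -0.38 for 786 minus 769 (edgeR adjusted p = 0.922, with 0.0995% of features called), which does not show that the lines hold equal amounts of this DNA.

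The surroundings of 2 of the genes did carry HpaII tags. Within 25 kb of the start and outside the window, sites with at least 10 HpaII tags were found at MAEL (5 sites) and TDRD1 (9 sites), and at no other of the 6 genes. Both groups of sites were chosen for description after their values were seen, and they have no test of their own.

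The upstream MAEL group was 5 sites between -13825 and -13388 bp. It includes the 3 sites tied to the upstream MAEL start printed above. In RefSeq that start lies 13698 bp before the downstream one and 42 bp from the start of ILDR2, which is read in the other direction. MspI tags there numbered 130, 23 and 26 in the 769 control and AA samples, and 13, 8 and 0 in those of 786. HpaII tags numbered 0, 63 and 55 in 769 and 0, 88 and 33 in 786. Every AA sample thus had HpaII tags here and neither control had one. In 769 the control's ratio was at most 0.0522, where the AA samples had 2.21 (1.7 to 2.82) and 2.76 (2.08 to 3.59). In 786 the control would have had 0.25 of a tag at the genome mean, so its 0 tells nothing. The ratio of 786 AA replicate 1 was 6.5 (5.21 to 8.01) on 8 MspI tags, and 786 AA replicate 2 had no MspI tag to set its 33 HpaII tags against. The tags did not fall on the same sites in each library: 769 AA replicate 1 had 50 of its 63 at -13825 bp, and 769 AA replicate 2 had all 55 at -13548 bp. The site at -13825 bp had 89 HpaII tags in all and no MspI tag in any library.

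**Figure D4:**
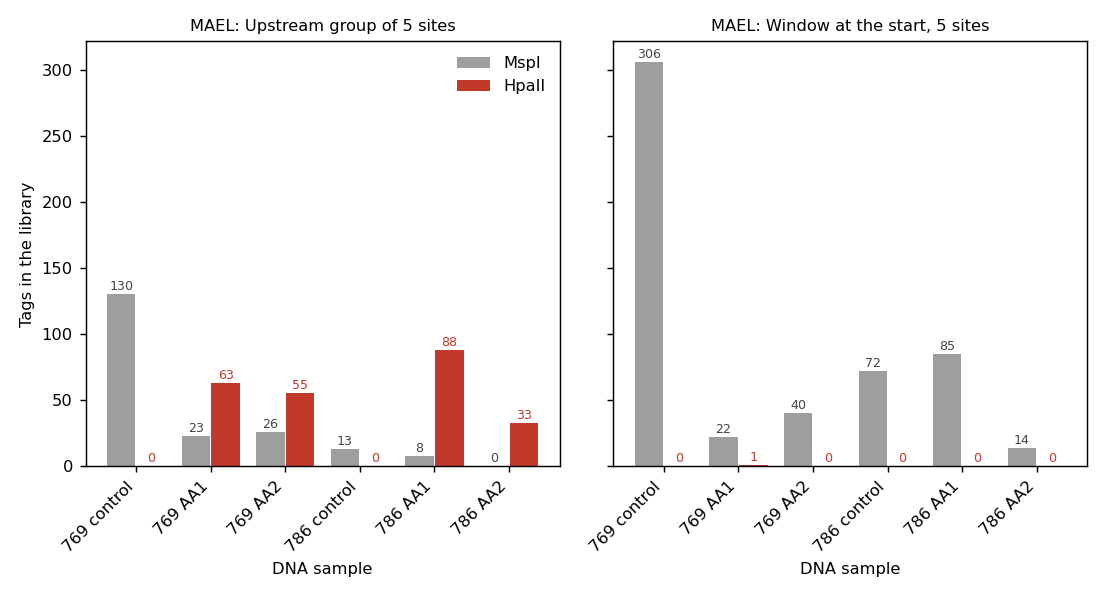
MspI (grey) and HpaII (red) tags per DNA sample at 2 starts of MAEL, 5 CCGG sites each. Upstream, HpaII tags number 33 to 88 in the 4 AA samples and 0 in both controls, of which that of 786 was too shallow to be read. At the downstream start, 1 HpaII tag was found in all 6 samples together.

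The 100 kb bin that holds the MAEL start (chr1:166900001-167000000, hg19) contains both starts, and such bins were tested as an alternative to the 4 kb tiles. For 769 it had 0 HpaII tags untreated, then 91 and 55.5 with AA, beside 535.5, 84 and 131.5 MspI tags. In 786 it had 0, 327 and 97 HpaII tags, beside 132, 216 and 49 MspI tags. In 769 both AA samples exceeded the control, where 237 HpaII tags would stand at the genome mean. The 786 control would have had 2.54, under the floor, so its 0 is not informative. Folds of the HpaII over MspI ratio were taken against a floor of 3 HpaII tags in the 769 control. AA replicate 1 stood 68.8-fold higher and AA replicate 2 43.4-fold higher. The other counts entered without counting error, so these folds are not lower limits. The bin passed for AA in 769 (edgeR adjusted p = 0.0242), a call made for 3.73% of 15623 bins. It met the condition on HpaII tags through the AA samples alone, since both controls had 0. The median log2 difference of all bins in that comparison was 0.43. The bin passed there with DESeq2 too (adjusted p = 0.000962, 15.0% of bins called) and with AA samples of equal number as a block (edgeR adjusted p = 0.00761, 6.62% of bins called). These fits use the same tags and the same 1 control of 769, so they add no separate support. It did not pass for both lines (edgeR adjusted p = 0.108, 0.307% of bins called), where DESeq2 called it (adjusted p = 0.00309, 4.01% of bins called), or for 786 (edgeR adjusted p = 0.434, 0.384% of bins called). In the AA samples of 769, 118 of the bin's 146.5 HpaII tags (80.5%) lay in the upstream group, and in those of 786 121 of 424 (28.5%). Over all samples 1 tag lay in the window at the downstream start, and the others lay elsewhere in the bin. The 769 control HpaII library listed 107494 sites against 279974 and 136539 in the AA libraries; its part in the result was not tested, and with 1 control a property of that library and AA cannot be told apart.

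The upstream TDRD1 group was 11 sites between -6205 and -4330 bp. By CCGG spacing, 3 of them fell on the promoter of CCDC186, a neighbouring gene read in the other direction, whose start lies 5067 bp from the TDRD1 start printed above. RefSeq's widest extent of TDRD1 also begins near there, at chr10:114174874 against chr10:114174220 for CCDC186 (GRCh38.p14). HpaII tags numbered 49, 303 and 88 in 769 and 15, 593 and 199 in 786, and were thus found in both controls. Ratios were 0.894 (0.662 to 1.18) in the 769 control and 1.82 (1.62 to 2.04) and 2.87 (2.3 to 3.54) with AA, and 2.75 (1.54 to 4.54) in the 786 control and 2.67 and 3.05 with AA. All 12 libraries thus had tags in this stretch, and the TDRD1 window had none from HpaII. In 769 the tags lay mostly at a few sites. AA replicate 1 had 189 of its 303 HpaII tags at -5286 bp. AA replicate 2 had 35 and 31 of its 88 at -5489 and -5286 bp. The control had 76 of its 124 MspI tags at -4907 bp and 0 HpaII tags there. The intervals cover counting error only. Over the whole 100 kb bin of TDRD1 the untreated 769 sample stood at a ratio of 2.92, above the AA samples at 1.68 and 1.7, the opposite order from the upstream group. The bin did not pass for AA in 769 (edgeR adjusted p = 0.593).

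The other 4 genes had few listed sites or HpaII tags around them within 25 kb. PIWIL2 had 11 other listed sites with 6 HpaII tags and 137 MspI tags, DAZL 6 sites with 5 and 25.5, and DDX4 and SYCP3 1 site each with no HpaII tag. The 100 kb bin of PIWIL2 held 77, 242 and 152 HpaII tags in 769 and 0, 254 and 37 in 786, and did not pass for AA in 769 (edgeR adjusted p = 0.921) or in both lines (edgeR adjusted p = 0.746). The 100 kb bin of DDX4 did hold HpaII tags, 142, 191 and 19 in 769 and 6, 58.5 and 33 in 786, with ratios of 0.911 to 5.24, and was left out of the test with all samples because 786 AA replicate 1 had 7.12 MspI tags there. The 100 kb bin of SYCP3 held no HpaII tag in any of the 6 samples beside 7 to 110 MspI tags per sample, and was not tested.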

How the data were processed

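Genomic DNA of 2 renal carcinoma cell lines was digested with HpaII or MspI, per the labels' protocols. The authors deposited expected counts of tags per CCGG site, not normalized, on hg19, the build named in the submitters' processing notes. The name of the aligner was not given in the sources used here. Between 8.23% and 11.5% of a library's listed sites had counts that were not whole (tolerance 1e-06). Library totals ran from 189704 to 12442031 tags.

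Column 6 was summed in the 6 windows and in 4 kb tiles of the other sites on chromosomes 1 to 22 and X, and rounded for tests. edgeR 4.0.16 (R 4.3.3) fitted DNA sample, enzyme, enzyme by line and enzyme by treatment, with TMM within each enzyme and Benjamini-Hochberg adjustment over all features; a second fit had a treatment term per line. With 1 control per line, the spread comes from the AA pairs and is assumed for the controls too. In the first fit it also takes in any difference of the AA effect between the lines. Exact Poisson intervals took the place of the planned binomial ones, and the planned likeness between genes was not computed because most ratios are 0. Ratios use tags on chromosomes 1 to 22 and X. A count of 0 has a floor of 3 tags, per library or over the pooled samples as stated. Python 3.11.15, numpy 2.4.6, pandas 2.3.3, scipy 1.17.1 and matplotlib 3.10.9 made the counts and figures.

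All 6 genes were named whatever their values. The genes, windows and lists were chosen with earlier results of these data known. Other germline genes had been listed for comparison, but no annotation of hg19 was used here, so they were not analysed. Alternatives were other scalings, DESeq2 1.42.0, filters, thinning, HpaII alone, a replicate block, windows of 1000 and 500 bp, 100 kb bins, whole counts, dropping the top site, and leaving out each DNA sample. Chosen after seeing the data were a mean MspI share and more fits of the 100 kb bins.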

Additional observations from a re-analysis of the deposited data

How the results depend on the processing

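In 74 of 122 further pairs of comparison and setting no promoter could be tested, so a count of 0 there says nothing of stability. Without a low count filter all 6 were tested and none passed in edgeR (0 at an unadjusted p under 0.05), which 4 of them, with at most 0.5 of an HpaII tag, could not have done. MAEL, with 1 tag, could hardly have passed either. In that setting 0.0267% to 0.140% of 266359 features were called, depending on the comparison. The replicate block, with 4 kb windows, tested and called 0. The deviations of AA samples with the same number had a correlation of -0.0043 across tiles. What the numbers 1 and 2 stand for remains unknown. With 100 kb bins 1 bin, that of MAEL, was called for AA in 769 (edgeR adjusted p = 0.0242, 3.73% of bins called). DESeq2 called it too (adjusted p = 0.000962, 15.0% of bins), as did edgeR with the replicate block (adjusted p = 0.00761, 6.62% of bins). Leaving out each AA sample gave log2 differences of 10.2 to 11, which rest on the control's 0 HpaII tags. The bin met the condition on HpaII tags through the AA samples alone, and these fits share its tags and 1 control. Without either control, no value for its line exists. For AA in both lines the MAEL bin passed with DESeq2 (1 bin, adjusted p = 0.00309, 4.01% of bins called), not in edgeR (0.307% of bins called).

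The ratio of a promoter left its counting interval or floor in 8 of 56 cases. Counted by sites with a tag in place of tags, it was 0.34 at PIWIL2, 0.121 at MAEL and 0.702 at DDX4. Leaving out each DNA sample gave 0.00758 to 0.19 at PIWIL2, 0 to 0.00493 at MAEL and 0 to 1.44 at DDX4, where the highest value rests on 0.5 of a tag against 0.346. DAZL, SYCP3 and TDRD1 had no HpaII tag in these settings, but their bounds moved when a DNA sample was left out, over 0.055 to 0.169, 0.0308 to 0.0627 and 0.115 to 0.349. Depth limits TDRD1, DDX4 and every window in the 786 control.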
